A study of Rattus norvegicus with 6 samples.

Results

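The genes described here build the urea cycle of the liver and the reactions that feed ammonia into it or take ammonia out of its reach. They are the 9 genes Nags, Cps1, Otc, Ass1, Asl, Gls2, Glud1, Glul and Oat, taken from the deposited gene table by symbol, out of 32930 genes in the table. Each symbol stood on 1 row, and all 9 were among the 18455 genes tested.

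Liver RNA was sequenced from 3 animals on a high-fat diet (HFD) and 3 on a high-fat diet with Huazhuo Tiaozhi granule (HTG), a herbal preparation, to ask which liver mRNAs the treatment alters. The series text gives an intervention of 12 weeks, names 0.5% sodium carboxymethyl cellulose as the vehicle of the HFD group and counts 6 rats. For its rats the study's methods give the high-fat diet that length and the drug only its later part, so how long these animals received HTG is not settled. Beyond that, nothing states that the libraries came from separate animals, and if they did not, p-values measure only the spread between these libraries. Sources differ on the species, since the labels and the series text say rat, the RNA-seq methods of the study name C57BL/6 J mice, and every row of the table carries a mouse gene identifier. The treatment label of the HTG samples spells the drug HCG, while their titles say HTG. No group on a normal diet was analysed here, so the values compare treated with untreated high-fat-fed animals, and genotype, sex and age are not given in the labels.

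Ammonia reaches hepatocytes from the gut and from amino acids broken down in the cell. Periportal hepatocytes, which receive the portal blood first, turn it into urea. Carbamoyl phosphate is made and joined to ornithine in the mitochondria, and the remaining steps run in the cytosol. Ammonia that escapes is captured as glutamine by a thin layer of pericentral hepatocytes around the central vein, so the pathway is divided between both ends of the lobule.

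Total estimated counts were 65353298, 70910444 and 69907057 in HFD libraries 1 to 3 and 78549295, 90563477 and 50648778 in HTG libraries 1 to 3. Levels are given as library-normalised CPM (counts scaled to a common library size), with TMM factors, and levels of the members are ranked against each other only as deposited FPKM, which is per transcript length. A cut on mean CPM for abundant genes and the shares of overlapping rows are on the scale of counts, with no regard to length. HTG library 1 lay between the groups. Its correlation across all genes tested was 0.959 with HFD library 1 and 0.959 with HTG library 2, where genes are not independent replicates, and on the first principal component it stood at -14.6, against -69.2 and -78.8 for HTG libraries 2 and 3 and 30.2 to 75.5 for the HFD libraries. The share of counts on the mitochondrial chromosome was 6.45%, 4.97% and 5.24% in HFD and 9.31%, 15.2% and 13.2% in HTG, with no overlap.

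The labelled tissue was checked with 7 hepatocyte genes. Alb, the albumin gene, was at 57900, 66100 and 74500 CPM in HFD and 53500, 54400 and 55200 CPM in HTG. Ttr, Fgb, Ambp and Serpinc1 were at 1570 CPM or more in all 6 libraries, with overlapping groups. Apoa2 was higher in HTG (log2 fold change 0.85, unadjusted p = 0.0119) and Tat, which starts tyrosine breakdown, lower (log2 fold change -1.32, unadjusted p = 0.00654). Median log2 fold change of the 7 genes was 0.06.

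Every fitted log2 fold change of the 9 genes was below zero, with a median of -0.71 (range -1.62 to -0.05), against 0.03 over all genes tested. At an unadjusted p under 0.05, 7 of the 9 were lower in HTG and 0 were higher, where 12.4% of all genes tested were lower and 12.3% higher. In 6 of the 9 all HTG values lay below all HFD values and in 0 all lay above, against 15.5% and 16.5% of all genes tested. No member passed an adjusted p of 0.05 in the quasi-likelihood test of edgeR, adjusted by Benjamini-Hochberg over all genes tested (0 of 9, with 7 at an unadjusted p under 0.05), a threshold that 2 genes, or 0.0108%, passed in the whole table. DESeq2 with the same adjustment called 5 of the 9, and 13.8% of the 17350 genes to which it gave an adjusted p. Adjusted in the same way, limma on log2(FPKM + 0.1) called 4 of the 9 and 8.03% of the 10930 genes averaging 1 FPKM or more, and without that filter 0 of the 9 (7 at an unadjusted p under 0.05) and 0.00877% of 22816 genes. At an adjusted p under 0.1 by edgeR with Benjamini-Hochberg adjustment, 4 of the 9 (Cps1, Ass1, Glul and Oat) were lower, against 5.43% of all genes tested. That count was 1 (Cps1) without HFD library 1, 0 without HFD library 2, HFD library 3, HTG library 2 or HTG library 3, and 6 without HTG library 1, by the same test and adjustment. In the fits where it was 0, at least 4 members had an unadjusted p under 0.05. The share of all genes tested at an adjusted p under 0.1 was not counted in the fits with 1 library left out. At an adjusted p under 0.05 by the same test, 653 genes of the whole table passed without HTG library 1. When any other library was left out, 0 to 7 passed, against 2 in the main fit. Abundant genes were lower more often than the table as a whole. Of the 1560 genes at or above the mean of Nags (76.7 CPM), the lowest mean CPM of the members, 25.5% were lower at an unadjusted p under 0.05, 29.4% had HTG values all below HFD, and the median log2 fold change was -0.21. In bulk tissue, fewer cells of a type and less RNA per cell cannot be told apart. Scaling without the mitochondrial chromosome left 7 members at an unadjusted p under 0.05 and the median log2 fold change of the 9 at -0.71. This alters only how the libraries are scaled, and the part of the mitochondrial share in these levels was not tested.

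**Figure D1:**
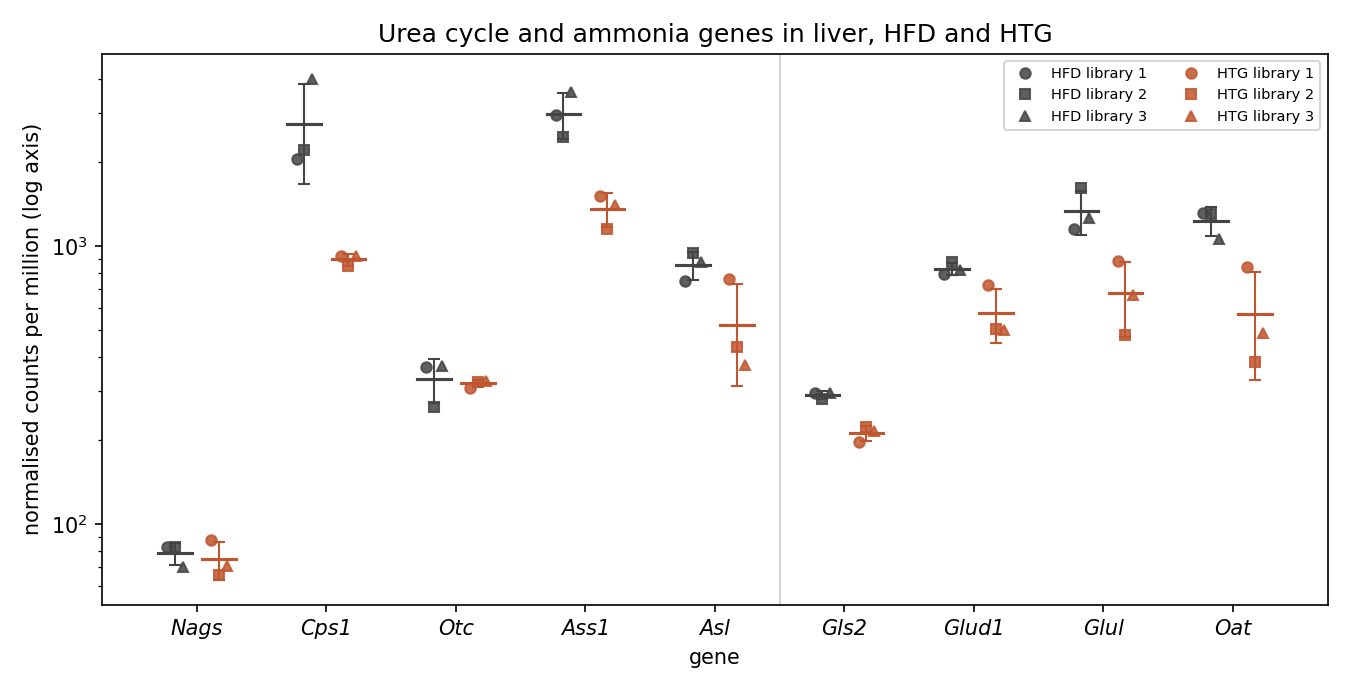
Normalised CPM (log axis) of the 9 genes in each of 3 HFD libraries (grey) and 3 HTG libraries (orange). Symbols mark libraries, horizontal lines the group means and bars the SD. The vertical line parts the urea cycle genes and Nags from the other ammonia genes. Cps1 and Ass1 show separate groups, while Otc and Nags overlap.

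Nags makes N-acetylglutamate, the activator without which carbamoyl phosphate synthetase does not work. Its level was 82.7, 82.8 and 70.3 CPM in HFD and 87.8, 65.5 and 71.0 CPM in HTG. The highest and the lowest values were both in HTG, and the groups overlapped. Nags had a log2 fold change of -0.07 (95% interval -0.49 to 0.34, edgeR adjusted p = 0.841 after Benjamini-Hochberg adjustment), and it was 0.02 without HTG library 2. Nags lies on chromosome 11 from 102036339 to 102040303, plus strand, and all coordinates here are as the table lists them.

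Cps1 encodes carbamoyl phosphate synthetase, the mitochondrial enzyme that commits ammonia to the cycle. It was at 2050, 2210 and 3990 CPM in HFD and 921, 845 and 923 CPM in HTG. HFD library 3 was far above the other HFD libraries, the HTG libraries were close to each other, and the groups were apart. The means were 2750 ± 1080 and 896 ± 44.4 CPM (SD, n = 3 each), 3.07-fold lower in HTG, lower in all 3 HTG libraries. Cps1 had a log2 fold change of -1.62 (SE 0.30), an unadjusted p of 0.000608 and an edgeR adjusted p of 0.0568 after Benjamini-Hochberg adjustment. Without HFD library 3 the log2 fold change was -1.25. Its row (ENSMUSG00000025991) spans chromosome 1 from 67162185 to 67270418 on the plus strand.

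Otc, the mitochondrial transcarbamylase that joins carbamoyl phosphate to ornithine, did not share this difference in level. It was at 367, 264 and 369 CPM in HFD and 310, 325 and 328 CPM in HTG. All 3 HTG libraries lay inside the HFD range. The log2 fold change was -0.05 (95% interval -0.53 to 0.42, edgeR adjusted p = 0.897 after Benjamini-Hochberg adjustment), and it was 0.02 without HFD library 1 and 0.02 without HFD library 3. Otc is on the X chromosome, from 10118544 to 10187263 on the plus strand.

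Ass1, argininosuccinate synthetase, brings in the nitrogen of aspartate in the cytosol. Its values were 2950, 2460 and 3570 CPM in HFD and 1520, 1150 and 1400 CPM in HTG. The highest HTG library was below the lowest HFD library. Mean levels were 2990 ± 556 and 1360 ± 190 CPM (SD, n = 3 each), 2.2-fold lower in HTG. The log2 fold change of -1.14 (SE 0.25, unadjusted p = 0.00158) had an adjusted p of 0.0605 by edgeR with Benjamini-Hochberg adjustment. Its row (ENSMUSG00000076441) spans chromosome 2 from 31360219 to 31410684 on the plus strand.

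Asl, argininosuccinate lyase, releases arginine and fumarate. It was at 750, 944 and 874 CPM in HFD and 760, 432 and 374 CPM in HTG. HTG library 1 was above HFD library 1, so the groups overlapped in CPM, while HTG libraries 2 and 3 were well below every HFD library. In FPKM the groups were apart, with 147 in HTG library 1 and 156 in HFD library 1. The log2 fold change was -0.71 (SE 0.30, unadjusted p = 0.0421, edgeR adjusted p = 0.185 after Benjamini-Hochberg adjustment). Without HTG library 1 it was -1.13 (edgeR adjusted p = 0.0486 after Benjamini-Hochberg adjustment), in a range of adjusted p from 0.0486 to 0.436 over its alternatives. The unadjusted p was above 0.05 when any HFD library, HTG library 2 or HTG library 3 was left out. Asl lies on chromosome 5 from 130040099 to 130053860, minus strand.

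Because some cycle genes were lower and Otc was not, the shares of Cps1, Otc, Ass1 and Asl in their summed FPKM were compared within each library. The sum itself was 1838, 1513 and 2448 FPKM in HFD and 959, 804 and 786 FPKM in HTG, with no overlap. Cps1 supplied 20.1%, 23.8% and 29.2% of it in HFD and 16.1%, 19.1% and 18.4% in HTG. Otc supplied 4.72%, 3.72% and 3.53% in HFD and 7.11%, 9.63% and 8.58% in HTG. The share of Cps1 was thus lower, and that of Otc higher, in every HTG library than in any HFD library. Ass1 supplied between 60.0% and 66.7% in HFD and between 60.0% and 64.4% in HTG, and the shares of Ass1 and of Asl overlapped between groups. Shares sum to a fixed total, so the higher share of Otc goes with the lower FPKM of the others and is not a higher level.

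The ratio of Cps1 to Otc FPKM, which act in succession in the mitochondria, was 4.26, 6.39 and 8.26 in HFD and 2.27, 1.99 and 2.14 in HTG, with the groups apart. The ratio of Ass1 to Asl FPKM, which act in succession in the cytosol, was 7.87, 5.21 and 8.16 in HFD and 4.01, 5.35 and 7.52 in HTG, and overlapped. Ass1 had the highest mean FPKM of the 9 genes in HFD (1200 ± 275, SD, n = 3), followed by Oat (503 ± 56.5) and Cps1 (481 ± 201), which did not differ beyond their spread. Glul (341 ± 41.3), Glud1 (190 ± 2.9), Asl (171 ± 13.1), Gls2 (81.3 ± 7.06) and Otc (76.5 ± 17.5) came next in FPKM, with Glud1 above Asl in each HFD library and Gls2 within the spread of Otc. In HTG Ass1 was again the highest (526 ± 55.9 FPKM), and Otc (71.0 ± 5.6 FPKM) stood above Gls2 (57.5 ± 6.65 FPKM) in each library. Nags had the lowest mean FPKM in both groups, 26.7 ± 2.33 in HFD and 24.7 ± 3.74 in HTG.

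**Figure D2:**
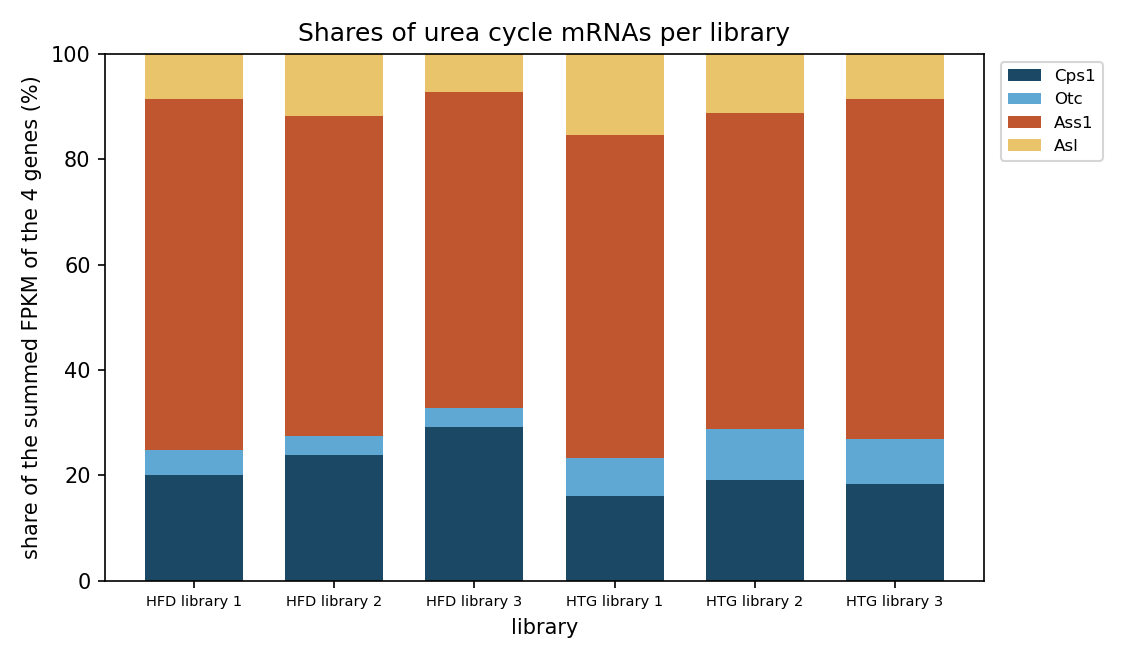
Share of each of 4 urea cycle genes in their summed FPKM (percent) in each library, stacked from Cps1 at the bottom to Asl at the top. The Otc share lies between 3.53% and 4.72% in HFD and between 7.11% and 9.63% in HTG.

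Gls2, the liver glutaminase, frees ammonia from glutamine inside periportal mitochondria next to carbamoyl phosphate synthetase. It was at 297, 281 and 297 CPM in HFD and 198, 224 and 216 CPM in HTG. The groups were tight and apart. Gls2 was 1.37-fold lower in HTG, with a log2 fold change of -0.46 (SE 0.18, unadjusted p = 0.0303, edgeR adjusted p = 0.156 after Benjamini-Hochberg adjustment). DESeq2 with Benjamini-Hochberg adjustment gave an adjusted p of 0.0372, in a range from 0.0372 to 0.336 over its alternatives, and the unadjusted p was above 0.05 without HFD library 1, HFD library 3 or HTG library 3. Gls2 lies on chromosome 10 from 128030326 to 128045811, plus strand, and overlaps Spryd4 on the other strand, whose mean count was 10.9% of that of Gls2, and Gm52965 on the same strand with 1.19%. The sources used here do not state whether counting used strand, so the counts of these neighbours cannot be told apart with certainty.

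Glud1, glutamate dehydrogenase, takes ammonia from glutamate or fixes it, and is present across the lobule. Its values were 792, 875 and 819 CPM in HFD and 722, 502 and 501 CPM in HTG. HTG library 1 was the closest to the HFD values, and the groups did not overlap. The log2 fold change was -0.53 (SE 0.23, unadjusted p = 0.0464, edgeR adjusted p = 0.194 after Benjamini-Hochberg adjustment). The unadjusted p lay close to 0.05. It was 0.0516 with upper-quartile scaling, 0.051 with at least 10 counts in every library and 0.051 with counts divided by 4, and above 0.05 when any HFD library, HTG library 2 or HTG library 3 was left out. The log2 fold change was -0.56, -0.49 and -0.54 without HFD libraries 1, 2 and 3 in turn and -0.77, -0.44 and -0.43 without HTG libraries 1, 2 and 3. Glud1 lies on chromosome 14 from 34032684 to 34067222, plus strand, and a pseudogene copy, Glud-ps, had 0.154% of its mean count.

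Glul, glutamine synthetase, is the enzyme by which the last pericentral hepatocytes capture ammonia. It was at 1150, 1620 and 1260 CPM in HFD and 883, 477 and 668 CPM in HTG. Every HTG library was below every HFD library, with HTG library 1 the closest. The means were 1340 ± 243 and 676 ± 203 CPM (SD, n = 3 each), 1.99-fold lower in HTG. The log2 fold change was -0.99 (SE 0.28, unadjusted p = 0.00732), with an adjusted p of 0.0873 by edgeR with Benjamini-Hochberg adjustment. Its row (ENSMUSG00000026473) spans chromosome 1 from 153775690 to 153785469 on the plus strand. Its overlapping rows Teddm2 and Mir8114 and its pseudogene copy Glns-ps1 each had under 0.2% of its mean count (0.119%, 0.016% and 0.189%).

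Oat, ornithine aminotransferase, removes ornithine toward glutamate in mitochondria and is concentrated in the same pericentral layer. It was at 1320, 1310 and 1060 CPM in HFD and 841, 384 and 485 CPM in HTG. The groups were apart, with HTG library 1 again the highest of the treated libraries. The means were 1230 ± 147 and 570 ± 240 CPM (SD, n = 3 each), 2.16-fold lower in HTG. Oat had a log2 fold change of -1.11 (SE 0.31, unadjusted p = 0.00721) and an adjusted p of 0.0871 by edgeR with Benjamini-Hochberg adjustment. Without HTG library 1 the log2 fold change was -1.54 (edgeR adjusted p = 0.0414 after Benjamini-Hochberg adjustment), in a range of adjusted p from 0.00464 to 0.246 over its alternatives. Its row (ENSMUSG00000030934) spans chromosome 7 from 132159207 to 132178127 on the minus strand, inside the listed span of Fgfr2 on the same strand, whose mean count was 2.7% of that of Oat.

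The calls depended on the fit to different degrees. Cps1, Ass1, Glul and Oat kept an unadjusted p under 0.05 in all 17 alternative fits, Gls2 in 13, Asl in 11 and Glud1 in 8, and Otc and Nags in 0. The count of members at an unadjusted p under 0.05 was 4 without HFD library 1, 4 without HFD library 3 and 4 without HTG library 3, where 22.3%, 20.5% and 17.9% of all genes tested reached that p in either direction. Without HTG library 1 it was 7, against 25.7% of all genes tested, with a median log2 fold change of -1.13.

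Periportal and pericentral members were then set side by side. Among the 6 periportal genes (Nags, Cps1, Otc, Ass1, Asl and Gls2), 4 were lower at an unadjusted p under 0.05, against 12.4% of all genes tested and 25.5% of the abundant genes, and the median log2 fold change was -0.59. Both pericentral genes were lower, with a median log2 fold change of -1.05. The difference between zones was taken per library as the mean log2(CPM + 0.5) of the periportal genes minus that of Glul and Oat. This was -1.07, -1.37 and -0.77 in HFD and -1.02, -0.27 and -0.63 in HTG, and the groups overlapped. The group means were -1.07 ± 0.30 and -0.64 ± 0.38 (SD, n = 3 each), a difference of 0.43. HTG libraries 2 and 3 stood above the HFD libraries and HTG library 1 among them, and the difference was 0.62 without HTG library 1, 0.24 without HTG library 2 and 0.28 without HFD library 2. With the median of the periportal genes in place of their mean it was 0.68. With Cps1 and Glul alone in place of the means, the difference was -0.53, so the sign depends on which genes stand for a zone. The values for Cps1 and Glul were 0.27, -0.1 and 1.11 in HFD and -0.49, 0.27 and -0.09 in HTG. These groups overlapped too, and HFD library 3 was far above the other libraries. Both ends of the pathway thus held genes with lower values in HTG, and the zone difference, whose groups overlap, is given as a description with no test.

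Further genes of each zone were read in the same way, against the same shares of all genes tested (12.4% lower and 12.3% higher) and of the abundant genes (25.5% lower). Of 12 other periportal markers tested, 6 were lower and 0 higher at an unadjusted p under 0.05, with a median log2 fold change of -0.78. Pigr, the receptor that carries immunoglobulin into bile, had a log2 fold change of -1.07, Fbp1, an enzyme of gluconeogenesis, one of -1.60, Hsd17b13 of -0.96 and Etnppl of -2.02. Hal and Sds, which release ammonia from histidine and serine, were at 0.13 and 0.20 on the same log2 scale, with overlapping groups. The groups also overlapped for Aldh1b1 (-0.90) and G6pc (-1.84), which are among the 6. The same held for Pck1 (-0.67), the most abundant of this list, Cyp2f2 (-0.50), Ctsc (-0.13) and Cdh1 (0.12). Etnppl was at 55.5, 249 and 48.9 CPM in HFD and 45.1, 29.9 and 12.3 CPM in HTG, with HFD library 2 far above the other libraries. Of 15 other pericentral markers, 6 were lower and 0 higher, with a median log2 fold change of -0.40. These were Gulo (-1.15), Cyp2c29 (-2.18), Cyp1a2 (-1.13), the glutamate transporter Slc1a2 (-0.98), the ammonium transporter Rhbg (-1.05) and Aldh1a1 (-1.11). The remaining pericentral markers all had overlapping groups. Lgr5, Axin2, Tbx3, Nkd1 and Sp5 had log2 fold changes of 0.12, -0.40, -0.09, 0.43 and 0.18. Cyp2e1, the most abundant marker of this list, had one of -0.57, and Cyp27a1, Lect2 and Rgn had -0.20, -0.09 and 0.29. No zone marker passed an adjusted p of 0.05 by edgeR with Benjamini-Hochberg adjustment.

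**Figure D3:**
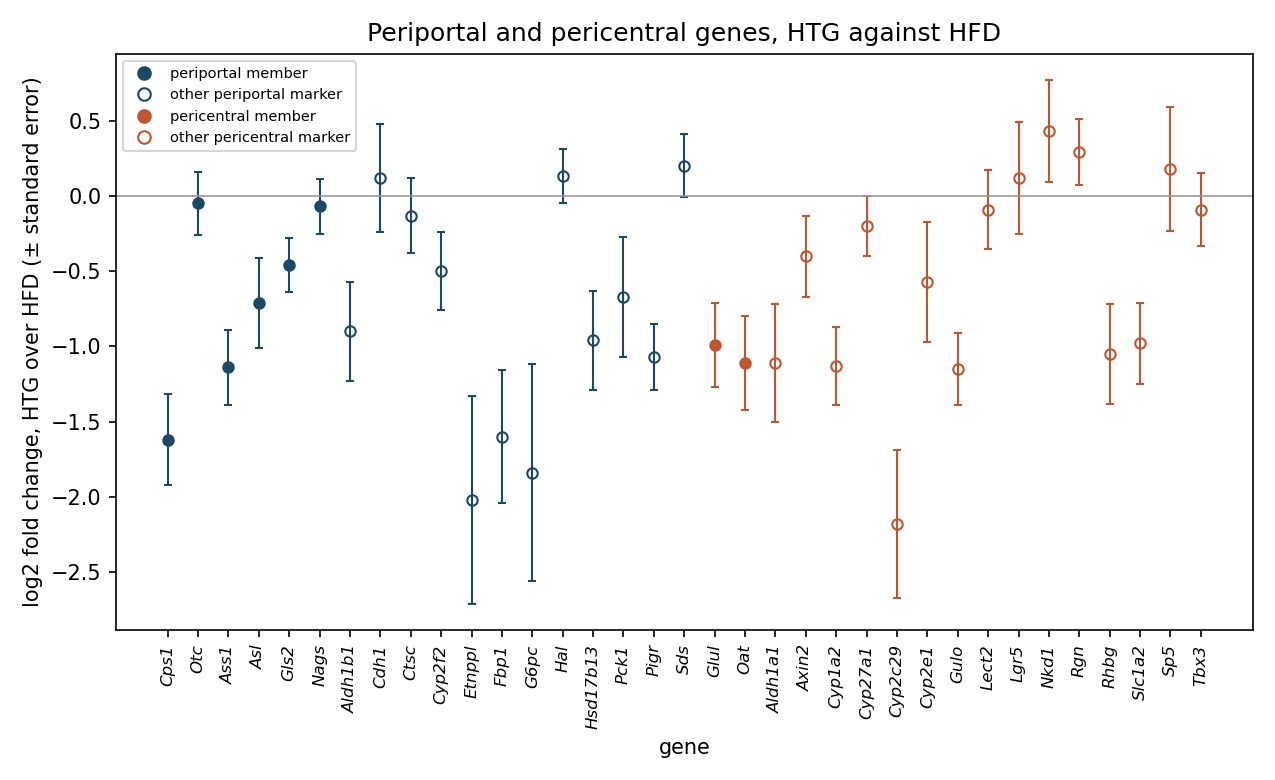
Log2 fold change of HTG over HFD with its standard error (bars) for the periportal genes (blue) and the pericentral genes (orange). Filled points are members and open points other markers of the zone, and the grey line marks zero. Genes near zero and genes below -1 occur in both zones.

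The transporters that carry the cycle's intermediates and nitrogen were in part lower with it. Of 23 genes in this list, 20 were tested, 9 were lower and 0 higher at an unadjusted p under 0.05, against 12.4% and 12.3% of all genes tested and 25.5% lower among the abundant genes, and the median log2 fold change was -0.55. Slc25a15, which exchanges ornithine and citrulline across the inner mitochondrial membrane, was at 169, 263 and 202 CPM in HFD and 137, 81.3 and 108 CPM in HTG (log2 fold change -0.96, unadjusted p = 0.00546). Slc25a13, the liver's aspartate and glutamate carrier that supplies aspartate to Ass1, was at 130, 175 and 169 CPM in HFD and 116, 79.2 and 85.9 CPM in HTG (log2 fold change -0.75, unadjusted p = 0.00833). Neither gene's groups overlapped. Its less abundant relative Slc25a12 had a log2 fold change of -0.68, and Slc25a44, a carrier of branched-chain amino acids, one of -0.92. Rhbg and Slc1a2, given above as pericentral markers, are also of this list. Slc38a3, which moves glutamine into periportal cells, was at 1480, 1300 and 1970 CPM in HFD and 1030, 1920 and 1730 CPM in HTG, and overlapped.

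Enzymes around glutamate, proline and ornithine gave a similar count, with 9 of 18 tested lower and 1 higher at an unadjusted p under 0.05 (12.4% and 12.3% over all genes tested, 25.5% lower among the abundant genes) and a median log2 fold change of -0.52. Odc1, which turns ornithine into putrescine, was at 28.2, 75.3 and 78.5 CPM in HFD and 23.6, 17.4 and 14.6 CPM in HTG (log2 fold change -1.71, unadjusted p = 0.00183). The transaminases Gpt2 and Got1 had log2 fold changes of -0.86 and -1.53, and Aldh4a1, which completes proline breakdown to glutamate, one of -0.78. Prodh2, a hydroxyproline dehydrogenase, was higher, at 171, 134 and 171 CPM in HFD and 264, 282 and 225 CPM in HTG (log2 fold change 0.70, unadjusted p = 0.00735). Gad1 was lower on very few counts, at most 0.51 CPM in any library.

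A list drawn up for amino acid deamination was read next, which also holds enzymes that release no ammonia themselves, such as Adk and Aspa. Of 18 tested, 6 reached an unadjusted p under 0.05, 3 with higher and 3 with lower values in HTG, against 12.3% and 12.4% of all genes tested, and the median log2 fold change was 0.01. Aspg, an asparaginase, was at 175, 172 and 156 CPM in HFD and 285, 502 and 406 CPM in HTG (log2 fold change 1.25, unadjusted p = 0.000797). Ftcd, of histidine breakdown, had a log2 fold change of 0.82 and Ampd2, an AMP deaminase, one of 0.46, each with separate groups. Dld, a subunit of the glycine cleavage system and of other mitochondrial complexes, had one of -0.84 and Maob, a monoamine oxidase, one of -0.64.

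Among 16 regulators linked to urea cycle genes, an unadjusted p under 0.05 was found for 4 genes with higher and 1 with lower values, against 12.3% and 12.4% of all genes tested, and the median log2 fold change was 0.23. Gcgr, the glucagon receptor, was at 311, 320 and 236 CPM in HFD and 461, 631 and 510 CPM in HTG (log2 fold change 0.89, unadjusted p = 0.00386). The transcription factors Foxa2, Foxa1 and Nfyb had log2 fold changes of 0.91, 0.72 and 0.65, and Foxo1 one of -0.65. The glucocorticoid receptor gene Nr3c1 and Cebpa overlapped, with -0.03 each. In these 4 lists edgeR called 0 genes at an adjusted p under 0.05 after Benjamini-Hochberg adjustment, with the counts at an unadjusted p as given and the other tools not counted by list.

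Markers of other liver cells were read because the samples are whole tissue. Of 6 Kupffer cell markers, 2 were lower and 0 higher at an unadjusted p under 0.05 (12.4% and 12.3% over all genes tested), and their summed FPKM was 481, 221 and 464 in HFD and 295, 296 and 153 in HTG, led by Cd5l. Adgre1 was at 21.3, 17.1 and 27.8 CPM in HFD and 9.88, 7.26 and 5.76 CPM in HTG (log2 fold change -1.53, unadjusted p = 0.000334), while Clec4f overlapped. Stellate cell markers summed to 30.5, 18.8 and 28.7 FPKM in HFD and 24.9, 21.1 and 16.2 FPKM in HTG, with Dcn the most abundant, Reln lower (log2 fold change -0.70) and Des higher (0.68). Cholangiocyte markers summed to 49.4, 51.8 and 61.4 FPKM in HFD and 36.8, 33.2 and 66.4 FPKM in HTG, with Spp1 the most abundant, Epcam lower (-0.95) and Sox9 higher (0.79). Of 8 markers of sinusoidal endothelium, led by Clec4g and Stab2, 4 of lymphocytes, led by Nkg7 and Cd8a, and 4 of neutrophils, led by S100a9 and S100a8, 0 were past an unadjusted p of 0.05 in edgeR. Of 5 red cell genes, Alas2 was lower (log2 fold change -0.49, unadjusted p = 0.0238), while the globin genes had overlapping groups, with log2 fold changes of 0.86 for Hba-a1, 0.78 for Hba-a2, -0.50 for Hbb-bs and -0.14 for Hbb-bt. What part these cells or the mitochondrial share have in the levels of the 9 genes was not tested.

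Tissue from outside the liver was looked for as well. Pancreatic Ctrb1 and Pnlip and fat-specific Adipoq were at 0 in all libraries, and kidney markers summed to at most 0.66 FPKM. Of the 5 genes listed for the small intestine, where Otc is also made, Sis was at 0 and Vil1 and Lct were at 0.193 CPM or less, while Fabp2 was present at 33.3, 31.9 and 31.4 CPM in HFD and 53.3, 57.8 and 23.3 CPM in HTG, with overlapping groups. A count of 0 allows up to 0.123 to 0.256 CPM per library at a floor of 3 fragments, taken as 12 counts, which covers counting error only. Cela1 was present at 1.77 to 3.52 FPKM. Apoa4, also listed for the intestine but also made by hepatocytes, was lower in HTG (log2 fold change -1.07, unadjusted p = 0.000984).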

How the data were processed

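Poly(A) RNA of liver was sequenced in paired ends. The table deposited by the authors holds, for each gene in each library, an estimated count written as a whole number with no scaling between libraries. It also holds the authors' FPKM, scaled by transcript length and library size. The submitters' processing notes name HISAT2, StringTie and SAMtools and the rat build mRatBN7.2, which the mouse gene rows do not match, so coordinates stand without a build. The study's methods describe strand-marked libraries, while the labels name a library kit (NEBNext Ultra RNA) without saying that it marks strand, and use of strand in counting is not given in the sources used here. The rat reference tables were not used here, and no sequences are given.

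Among low counts, 4, 8 and 12 were more frequent than their neighbours, while 1 and 2 were also frequent (4 occurred 6450 times, 1 occurred 5104 times and 3 occurred 2549 times), so what 1 fragment adds is not settled. Depth in fragments was taken as totals divided by 4 (12662194 to 22640869 per library), an approximation, and the floor of an empty gene as 12 counts, 3 fragments on that scale. Counts were tested with edgeR 4.0.16 (TMM, filterByExpr, quasi-likelihood, two-sided, group as the only term) in R 4.3.3, adjusted by Benjamini-Hochberg over all genes tested. The code was tested on simulated data. DESeq2 1.42.0, limma 3.58.1, other scalings and filters, and leaving out each library were alternatives. An exact permutation test of 3 libraries against 3 cannot go below p = 0.1 and was not run. Members and lists were chosen with earlier results of these data known. 1 listed gene is not reported here and is left out of every count and score of the members, the zone difference included. The members reported were all named, and from each list up to 6 genes by p among those with an unadjusted p under 0.05 and groups that do not overlap, or otherwise the most abundant 2. Other genes named were chosen after their values were seen. They are the remaining zone markers tested, the globin genes, the further hepatocyte genes and the markers near 0. Slc38a3, Nr3c1, Cebpa, Clec4f, Cd5l, Dcn, Spp1 and Fabp2 are also among them.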

Additional observations from a re-analysis of the deposited data

How the results depend on the processing

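Over 17 alternative fits of the 9 genes, 150 of 153 fold changes kept their direction. The 3 that turned were Otc at 0.02 without HFD library 1 and 0.02 without HFD library 3, and Nags at 0.02 without HTG library 2 (ranges with 1 library left out -0.20 to 0.02 and -0.25 to 0.02). The count of members with groups apart, 6 in the main values, was 6 or 7 in its alternatives. The count of members called at an adjusted p under 0.05 (Benjamini-Hochberg), 0 by edgeR, was 5 by DESeq2, 2 with at least 10 counts in every library, 2 with counts divided by 4, 4 by limma on log2(FPKM + 0.1) and 4 on log2(FPKM + 1), each over genes averaging 1 FPKM or more, 0 by limma without that filter, and 0 to 2 when 1 library was left out. Over all genes edgeR called 2, against 2401 by DESeq2, 162 with no filter, 684 with at least 10 counts, 822 with counts divided by 4, 878 and 884 by limma with the pseudocounts 0.1 and 1, 2 by limma without its filter, and 0 to 653 when 1 library was left out. Members at an unadjusted p under 0.05 were 4 to 7 when 1 library was left out. The zone difference of 0.43 was -0.53 with Cps1 against Glul, 0.24 to 0.62 when 1 library was left out, 0.68 with the periportal median, and 0.76 without Cps1 and Ass1, an alternative chosen after seeing the data. The causes were not tested.

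With a replicate block, all genes called were 0 and members called 0. Members at an adjusted p under 0.1 were 0 against 4, and members at an unadjusted p under 0.05 were 4. The zone difference stayed at 0.43, which the balanced layout fixes in advance. Between libraries of the same number it was 0.05, 1.11 and 0.14 for numbers 1 to 3. The labels give libraries of the same number nothing in common but that number. Their deviations from the group means correlated at -0.0779, -0.0731 and 0.101 across genes. Those of libraries of unlike number correlated at -0.121 to 0.185. Whether libraries of the same number shared a batch was not tested.

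Depth limits the member with the fewest counts per library size little, as Nags was far above the floor of 0.123 to 0.256 CPM. The number of libraries limits the precision.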
